A study of Mus musculus with 4 samples.

Results

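The cytoplasmic ribosomal protein genes are the genes whose products, bound to ribosomal RNA, form the small and the large subunit of the ribosome outside mitochondria. Members were taken by symbol, from the names Rps and Rpl followed by a number with or without a paralogue ending, Rplp0, Rplp1, Rplp2 and Rpsa, with at least 500 UMIs (unique molecular identifiers, which count RNA molecules) summed over 4 libraries. This gave 83 of the 87 genes with such a symbol, among 55357 genes in the files: 32 of the small and 51 of the large subunit. The 4 that fell short were Rpl10l with 0 UMIs, Rps12l1 with 91, Rpl3l with 124 and Rpl39l with 171, and the lowest inside were Rpl32l with 1092 and Rpl6l with 8115. Beyond the symbol, members were chosen by these sums of UMIs alone. In the annotation 80 of the 83 were protein-coding, Rpl6l and Rpl32l were processed pseudogenes and Rps4l a transcribed processed pseudogene.

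Single-cell RNA-seq had been made from LSK cells (lineage-negative, Sca-1-positive, Kit-positive), the bone marrow fraction that holds the haematopoietic stem cells and multipotent progenitors of the mouse. All mice were wild type. The Yoda1 group was given Yoda1, an agonist of Piezo1 (an ion channel opened by mechanical force), by intraperitoneal injection for 2 weeks, and the control group vehicle, with 2 libraries in each group; the labels give no age, sex, dose or number of mice. Whether each library is a different mouse is not stated; the replicate error behind every p-value may therefore be technical.

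A ribosome carries 1 copy of nearly every ribosomal protein, and cells make the proteins in step. Their mRNAs are among the most abundant of a growing cell, and most begin with a run of pyrimidines (C or T in the gene), the terminal oligopyrimidine tract, through which the mTOR pathway controls their translation. Blood formation is sensitive to the dose of several of them: loss of 1 copy of RPS19, RPL5 or RPL11 causes Diamond-Blackfan anaemia, a failure of red cell production, and RPS14 lies in the region lost in the 5q- syndrome. A few members have a second gene for a similar protein, such as Rps27l beside Rps27, Rpl36al beside Rpl36a, Rpl22l1 beside Rpl22 and Rpl7l1 beside Rpl7.

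The sequences below are of members whose share among ribosomal protein transcripts differed between cells, with Rpl36a as the partner of Rpl36al. Each runs 5′ to 3′ on the gene's strand from 10 bases before the RefSeq transcription start to 20 bases from it (GRCm38.p6), with the longest unbroken run of C and T in capitals. RefSeq gave a second start for Rps27l and for Rps24, not shown.
Rps27, chr3:90213629-90213658, minus strand: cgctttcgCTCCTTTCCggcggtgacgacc
Rps27l, chr9:66946076-66946105, plus strand: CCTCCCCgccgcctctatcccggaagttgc
Rpl36a, chrX:134585644-134585673, plus strand: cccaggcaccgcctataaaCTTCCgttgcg
Rpl36al, chr12:69184048-69184077, minus strand: ccgtcgctcaggttcagttccgaCTTCCgc
Rpl22l1, chr3:28805498-28805527, plus strand: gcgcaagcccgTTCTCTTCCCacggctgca
Rpl41, chr10:128549149-128549178, minus strand: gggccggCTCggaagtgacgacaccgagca
Rps2, chr17:24720053-24720082, plus strand: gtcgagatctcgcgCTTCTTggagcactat
Rps9, chr7:3704031-3704060, plus strand: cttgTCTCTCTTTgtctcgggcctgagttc
Rps24, chr14:24490668-24490697, plus strand: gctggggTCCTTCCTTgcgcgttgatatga

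The longest run was 9 bases in Rps27, Rps9 and Rps24, which took a smaller share of ribosomal protein transcripts in the erythroid and myeloid gates than in the stem gate. It was 7 in Rps27l, 5 in Rpl36al, 6 in Rps2 and 3 in Rpl41, which took a larger share in both. Other members went against this order: Rpl22l1, with a run of 10, and Rpl14, with 14, took a larger share in both gates, and Rpl23, with 3, a smaller one. The table held 61 of the 83 members, in 72 start windows. A run of at least 7 stood in 47.2% of their windows, against 17.9% of the 32851 windows of all genes, and the word CTTTC on the gene's strand in 19.4% against 3.74%. Over the 300 bases from 250 before the start, CCGGAAG or its reverse complement CTTCCGG stood in 34.7% of the members' windows against 8.86%, and TATAAA or its reverse complement TTTATA in 11.1% against 13.6%. From the stem to the myeloid gate both sets were close over the family. The median log2 change of share was 0.02 over the 33 members with a run of at least 7 and 0.04 over the 28 without. From non-cycling to cycling cells these medians were -0.01 and 0.07, and the difference was not tested. These matches describe letters, not sites.

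After filtering, the libraries held 7620 (control 1), 7822 (control 2), 9122 (Yoda1 1) and 9756 (Yoda1 2) cells with a median of 11220, 9411, 10184 and 7311 UMIs, and values per library below keep this order. Yoda1 2 stood apart: the summed level of 5 stem cell markers was 599 counts per 1000000 UMIs (CPM) there and 191 to 242 in the others, and that of 5 myeloid markers 2400 against 7895 to 9913. In cycling cells it was nearest to control 2, with 67.5%, 52.2%, 66.8% and 44.8% in the 4 libraries. Control 2 and Yoda1 2 were also the highest in 5 lymphoid markers (229, 461, 280 and 714 CPM) and 6 B cell markers (59.5, 188, 42.7 and 163). Pairs of libraries shared 14 to 30 cell barcodes. A list of 6 T and NK cell markers summed to 280 to 486 CPM, lists of mature neutrophils, red cells and stromal cells to at most 208, 125 and 58.9 in any library, and Kit with Ly6a, the sorted surface markers, to 211 to 367. Cells were gated by marker genes that are not members, after each cell was thinned to 2000 UMIs of other genes: 13559 of 33495 thinned cells passed a gate, and 2745 cells lay within 0.1 of the cut. Gates carry the names of their marker lists: stem (1997 cells, 1185 of them from Yoda1 2), lymphoid (1844), megakaryocyte (1558), monocyte and dendritic cell (888), mast cell and basophil (951), erythroid (2270) and myeloid (3778). The median cell of the stem gate had 1488 CPM of stem markers such as Hlf and Procr against 9.54 to 281 in the 6 others, while the median cell of the myeloid gate had 25801 CPM of myeloid markers such as Mpo and Elane against 907 in the stem gate. The median cell of the mast cell gate had 3913 CPM of myeloid markers, above its 2304 CPM of mast cell and basophil markers. The B cell gate had under 50 cells in 2 libraries and was not tested.

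The 83 genes supplied 27.7% of all UMIs, 108882324 of 393136568. The share was 28.0%, 27.1%, 28.2% and 27.4% in the 4 libraries. From cell to cell it lay between 20.2% and 33.6% from the 5th to the 95th percentile in control 1, with like ranges in the others. Cells under 20% made up 2.31% to 5.09% of a library; their median cell had 2.45% to 3.36% mitochondrially encoded UMIs, against 1.40% to 1.91% over all cells, and 4003 to 4324 UMIs. Small subunit genes gave 44.7%, 46.6%, 45.1% and 46.2% of the members' UMIs. Among the highest means over libraries were those of Rpl32 (8241 CPM), Rps24 (7936), Rpl23 (6516) and Rps20 (6365), and the lowest those of Rpl32l (2.74), Rpl6l (20.7), Rps4l (32.7), Rpl7l1 (136) and Rpl36al (307). Capture and mapping may differ between genes and were not tested, so these levels do not rank them. The 322 named ribosomal pseudogenes outside the rule, which could share reads with members, summed to 0.303% to 0.401% of the members' UMIs. For single members the part could be larger: the 4 named after Rps10 held 51685 UMIs, beside 238927 of Rps10 itself.

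**Figure D1:**
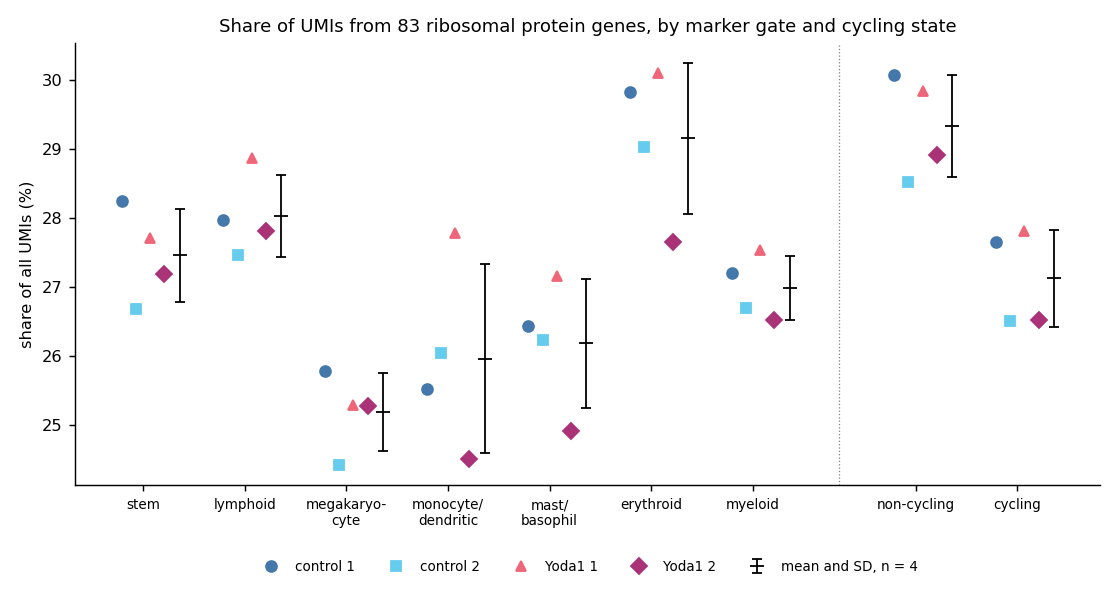
Share of all UMIs (%) from the 83 genes on the vertical axis, in 7 marker gates and in non-cycling and cycling cells; each point is 1 library, and the black bar gives the mean and SD over 4 libraries. The erythroid gate stands above the stem gate and the megakaryocyte gate below it in every library, and cycling cells stand below non-cycling cells in every library.

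The ribosomal protein share differed among lineages by a few percentage points. In the stem gate it was 28.2%, 26.7%, 27.7% and 27.2%. In the erythroid gate it was 29.8%, 29.0%, 30.1% and 27.7%, higher in each library, by 1.69 points ± 0.899 (SD of the differences, n = 4 libraries). In the megakaryocyte gate it was 25.8%, 24.4%, 25.3% and 25.3%, below every stem value, by -2.26 ± 0.256. The mast cell and basophil gate was also lower in each of the 4 libraries (-1.28 ± 0.913), while the lymphoid gate (0.57 ± 0.603), the monocyte and dendritic cell gate (-1.49 ± 1.42) and the myeloid gate (-0.47 ± 0.476) did not have the same sign in all 4. An exact two-sided sign permutation test over 4 libraries cannot go below p = 0.125, which the erythroid, megakaryocyte and mast cell differences reached.

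Cycling cells gave a smaller part of their UMIs to ribosomal proteins than non-cycling cells. Cycling was set by at least 8 UMIs of 40 S and G2/M genes in a thinned cell, non-cycling by at most 3. The share was 30.1%, 28.5%, 29.8% and 28.9% in non-cycling and 27.7%, 26.5%, 27.8% and 26.5% in cycling cells, a difference of -2.21 points ± 0.219 (SD, n = 4), lower in 4 of 4 (exact sign permutation p = 0.125, the smallest possible). Within the stem gate the difference was -2.16 ± 0.239, within the lymphoid gate -2.08 ± 0.781, within the mast cell gate -0.78 ± 0.218 and within the megakaryocyte gate -4.78 ± 1.42, lower in every library each time. Cycling cells were also deeper, with a median of 11311 to 14190 UMIs against 5143 to 5738; the part of depth in the difference was not tested.

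Gates differed in cycling too: 15.1% to 23.4% of the stem gate cycled, 69.8% to 80.6% of the megakaryocyte gate and 78.0% to 89.0% of the myeloid gate. Set cycling cells against cycling cells, the erythroid share exceeded the stem share by 2.80 points and the myeloid share by 0.81, both in 4 of 4 libraries, and the megakaryocyte share stayed below it (-1.38, 4 of 4). The mast cell difference was then -0.161. Among non-cycling cells the megakaryocyte share was above the stem share by 1.24 points, in 3 of 4 libraries that held 25 to 50 such cells each. Without the top 5% of cells by UMIs the megakaryocyte difference was -1.51.

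Gene by gene, whether the members moved with or against other genes depended on how libraries were scaled. Each gate was tested against the stem gate with edgeR's quasi-likelihood test; the 6 comparisons share the stem gate, so they are not independent. With TMM normalization (scaled to the bulk of genes) 78 of 83 members were higher and 2 lower in the erythroid gate, against 35.6% of all genes higher and 38.8% lower, with a median member log2 fold change of 0.49. In the myeloid gate 75 were higher and 3 lower (33.6% and 38.8% of all genes), median 0.41. In the lymphoid gate 50 were higher and 0 lower (18.2% and 16.2%), in the mast cell gate 47 and 2 (24.3% and 23.3%), in the monocyte and dendritic cell gate 56 and 2 (28.0% and 28.4%), and in the megakaryocyte gate 33 and 20 (29.2% and 33.7%). With plain CPM (scaled to all UMIs) the erythroid counts became 44 higher and 18 lower (22.8% and 53.7% of all genes), the myeloid 28 and 29 (18.9% and 57.7%), the lymphoid 19 and 6 (12.0% and 24.2%), the mast cell 12 and 32 (14.8% and 36.2%), the monocyte 11 and 34 (17.1% and 44.5%) and the megakaryocyte 20 and 47 (22.8% and 41.6%). The median member then changed sign in 4 of the 6 gates, to -0.01 in the myeloid, -0.04 in the mast cell, -0.07 in the monocyte and -0.10 in the megakaryocyte gate, and kept it in the erythroid (0.11) and lymphoid (0.03) gates. Plain CPM moved the median of all genes from -0.08 to -0.50 in the myeloid gate. Cycling against non-cycling cells gave 43 members higher and 5 lower with TMM (29.9% and 29.6% of 17207 genes; median member 0.13) but 16 and 45 with plain CPM (19.2% and 44.5%; median -0.10). The 48 members called with TMM became 31 without control 1 and 31 without control 2, and the 50 called in the lymphoid gate became 32 without Yoda1 1.

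Differences between members within a comparison do not depend on that choice, and they were read as each gene's share of the members' UMIs. On this scale rises must be balanced by falls. In the erythroid gate 33 members rose and 29 fell against the stem gate (20.0% and 57.2% of all genes), in the myeloid gate 34 and 27 (19.9% and 55.9%), in the megakaryocyte gate 34 and 27 (28.3% and 33.8%), in the monocyte and dendritic cell gate 28 and 23 (20.1% and 38.2%), in the mast cell gate 22 and 21 (17.6% and 30.7%) and in the lymphoid gate 16 and 16 (10.6% and 25.8%). In cycling against non-cycling cells 34 rose and 32 fell (23.9% and 36.0%). Most of these differences were small; the widest, apart from the sparse pseudogenes, was the 2.04-fold higher share of Rps27l in the myeloid gate.

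**Figure D2:**
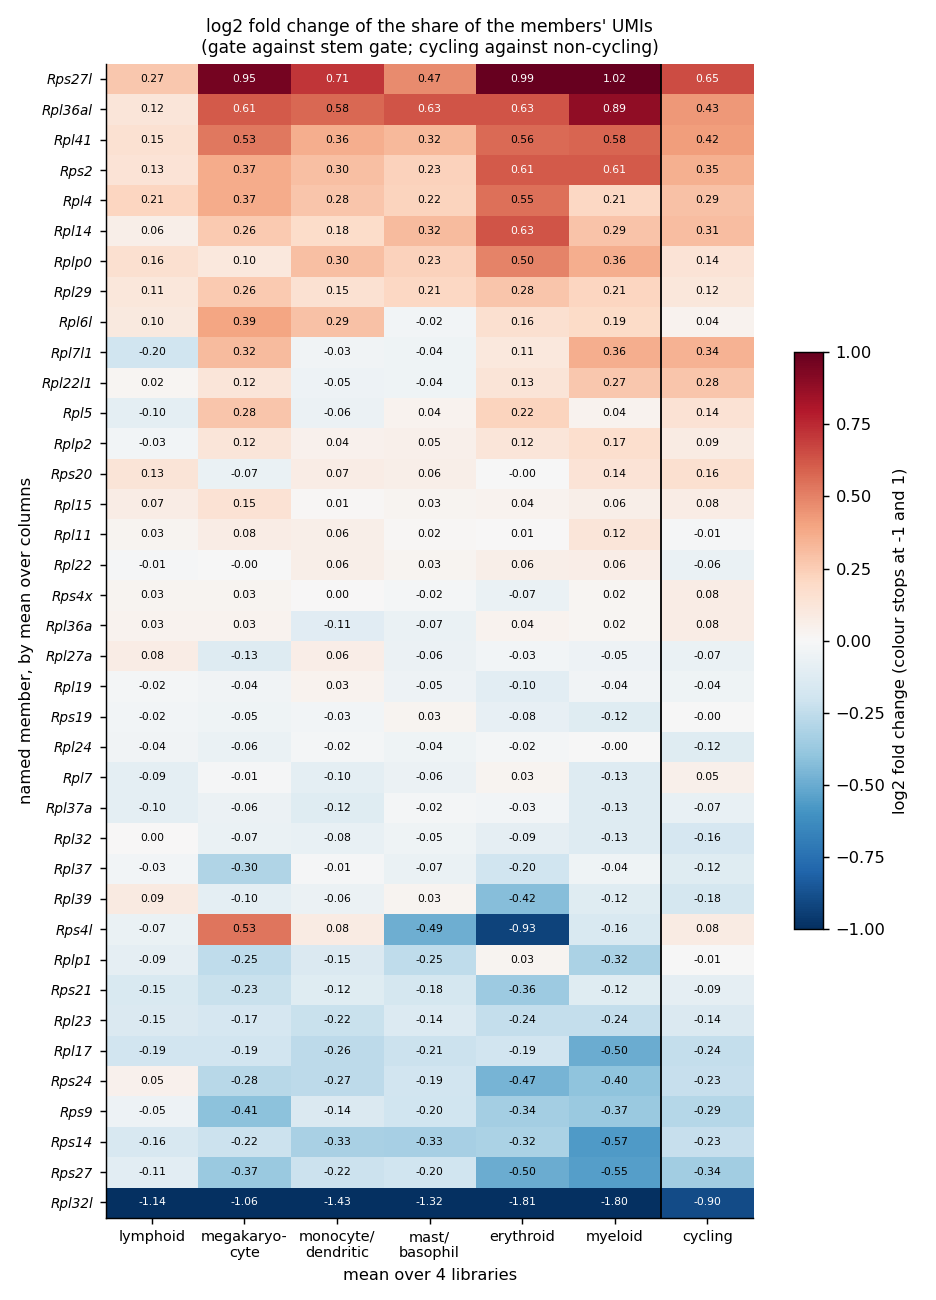
Log2 fold change of the share of the members' UMIs for 38 named members (rows, ordered by their mean over the columns), in 6 gates against the stem gate and in cycling against non-cycling cells (columns), as the mean over 4 libraries. Rps27l and Rpl36al lead the rows on the higher side (1.02 and 0.89 in the myeloid gate) and Rps27, Rps14 and the sparse pseudogene Rpl32l stand at the lower end.

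Among small subunit genes, Rps27l rose most. Rps27l encodes a near copy of the zinc-binding protein Rps27 and is known as a p53 target. It took 0.137%, 0.136%, 0.137% and 0.146% of the members' UMIs in the stem gate and 0.262%, 0.281%, 0.305% and 0.283% in the myeloid gate, so that every myeloid value exceeded every stem value. The log2 change was 1.02 ± 0.07 (SE; edgeR adjusted p = 5.59e-13), and it was 0.99 in the erythroid, 0.95 in the megakaryocyte, 0.72 in the monocyte, 0.47 in the mast cell and 0.27 in the lymphoid gate, each past the test. Rps27 itself went the other way, from 1.32%, 1.08%, 1.37% and 1.20% in the stem gate to 0.917%, 0.747%, 0.917% and 0.807% in the myeloid gate (-0.55 ± 0.04, adjusted p = 8.12e-13), with every myeloid value below every stem value.

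Rps2, a protein of the mRNA entry site of the small subunit, rose with it. Its share was 1.06%, 1.40%, 0.993% and 1.25% in the stem gate, 1.57%, 2.05%, 1.59% and 1.97% in the myeloid gate (0.61 ± 0.04, adjusted p = 2.02e-13) and 1.57%, 2.08%, 1.50% and 2.05% in the erythroid gate (0.61 ± 0.04, adjusted p = 1.33e-13). Neither gate overlapped the stem gate.

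Rps14, Rps9 and Rps24, all core proteins of the small subunit, made up less of the pool in most gates than in the stem gate; in the lymphoid gate Rps9 (-0.05) and Rps24 (0.05) did not pass the test. Rps14 was at 1.95%, 2.18%, 2.28% and 2.10% in the stem gate and at 1.38%, 1.51%, 1.48% and 1.36% in the myeloid gate (-0.57 ± 0.03, adjusted p = 4.35e-15). Its log2 change was -0.32 in the erythroid, -0.22 in the megakaryocyte and -0.16 in the lymphoid gate, each past the test. Rps9 fell most in the megakaryocyte gate (-0.41 ± 0.03, adjusted p = 1.69e-11), and Rps24 in the erythroid gate (-0.47 ± 0.03, adjusted p = 8.69e-14). Rps24 was the second most abundant member by UMIs, at 3.05%, 3.69%, 3.05% and 3.44% of the pool in the stem gate and 2.20%, 2.73%, 2.16% and 2.47% in the erythroid gate. Rps19, the commonest Diamond-Blackfan gene, was lower in the erythroid (-0.08, adjusted p = 0.00425) and the myeloid gate (-0.12, adjusted p = 8.3e-05) and did not pass the test in the 4 others.

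Of the large subunit, Rpl41, the smallest ribosomal protein, had a share of 1.82%, 1.35%, 1.59% and 1.43% in the stem gate and 2.58%, 2.01%, 2.53% and 2.18% in the myeloid gate (0.58 ± 0.03, adjusted p = 1.2e-14). The lowest myeloid library lay above the highest stem library. Rpl14 rose most in the erythroid gate, where it was at 1.59%, 1.59%, 1.52% and 1.59% against 1.05%, 1.01%, 0.972% and 1.03% in the stem gate (0.63 ± 0.03, adjusted p = 1.52e-17); its mean log2 change was 0.06 to 0.32 in the 5 other gates, and the differences between those gates and the erythroid gate were not tested. Rpl4, a protein that lines the exit tunnel for the growing peptide, and Rplp0, the base of the stalk that recruits elongation factors, were higher in the erythroid gate too (0.55 ± 0.04 and 0.50 on the mean log2 scale). Rpl17, another exit tunnel protein, fell in the myeloid gate (-0.50 ± 0.04, adjusted p = 4.5e-12), as did Rpl23 (-0.24 on the mean log2 scale). Rpl5 and Rpl11, which bind 5S ribosomal RNA together and inhibit the p53 regulator Mdm2, had unlike values, whose difference was not tested: the mean log2 change of Rpl5 was 0.22 in the erythroid and 0.28 in the megakaryocyte gate, that of Rpl11 0.01 and 0.08.

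Rps27l also led in cycling cells. Its share of the members' UMIs was 0.159%, 0.154%, 0.153% and 0.141% in non-cycling and 0.240%, 0.247%, 0.261% and 0.208% in cycling cells (log2 change 0.65 ± 0.04, adjusted p = 1.32e-06). Rpl36al (0.43 ± 0.04) and Rpl41 (0.42 ± 0.02) were higher too, and Rps27 (-0.34 ± 0.02), Rps9 (-0.29 ± 0.02) and Rpl17 (-0.24 ± 0.02) fell, each past the test. Over all cells this contrast also follows the mix of lineages. Within the stem gate, where at least 41 cells a library cycled, the leading rise was that of Rpl22l1 (0.37 ± 0.04, adjusted p = 9.49e-16), before Rps27l (0.32 ± 0.06, adjusted p = 3.09e-06) and Rpl41 (0.31 ± 0.03, adjusted p = 3.68e-26). With TMM, 10 of the 82 members tested within the stem gate were higher in cycling cells and 45 lower, where the pooled cells had given 43 and 5, against 15.8% and 14.6% of all genes tested there; in the lymphoid gate it was 17 and 29 (20.1% and 16.7% of all genes), and without Yoda1 2 a total of 29 was called there.

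Paralogues were then compared as the share of the copy in the UMIs of its pair, which no scaling of libraries can change. Rps27l made up 9.40%, 11.2%, 9.12% and 10.8% of the Rps27l and Rps27 UMIs in the stem gate. It made up 22.2%, 27.3%, 24.97% and 25.9% in the myeloid gate, 21.4%, 26.1%, 21.6% and 27.2% in the erythroid gate and 19.5%, 24.3%, 21.4% and 23.0% in the megakaryocyte gate, far above every stem value. The mean difference from the stem gate was 15.0 points ± 1.65, 13.9 and 11.9 in these gates. It was intermediate in the monocyte and dendritic cell gate (16.9%, 19.5%, 20.2% and 14.3%) and the mast cell gate (14.3%, 16.3%, 14.6% and 15.5%), and, of the 6 gates, lowest in the lymphoid gate (10.2%, 14.0%, 14.2% and 12.8%), whose values overlapped those of the stem gate although each library was higher than its own stem gate. The marker list of the monocyte and dendritic cell gate includes the class II genes Cd74, H2-Aa and H2-Ab1. Its monocyte part without class II held 67, 78, 127 and 17 cells. There the Rps27l share was 19.7%, 20.8%, 22.2% and 20.1%, overlapping the megakaryocyte gate. Of the 3 highest gates the megakaryocyte gate was the lowest in every library, while the order of the myeloid and erythroid gates was not the same in every library. Each difference had the same sign in 4 of 4 libraries (exact sign permutation p = 0.125, the smallest possible), and the 95% binomial interval of such a share, which covers counting error only, was 1.06 points wide in the median case.

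**Figure D3:**
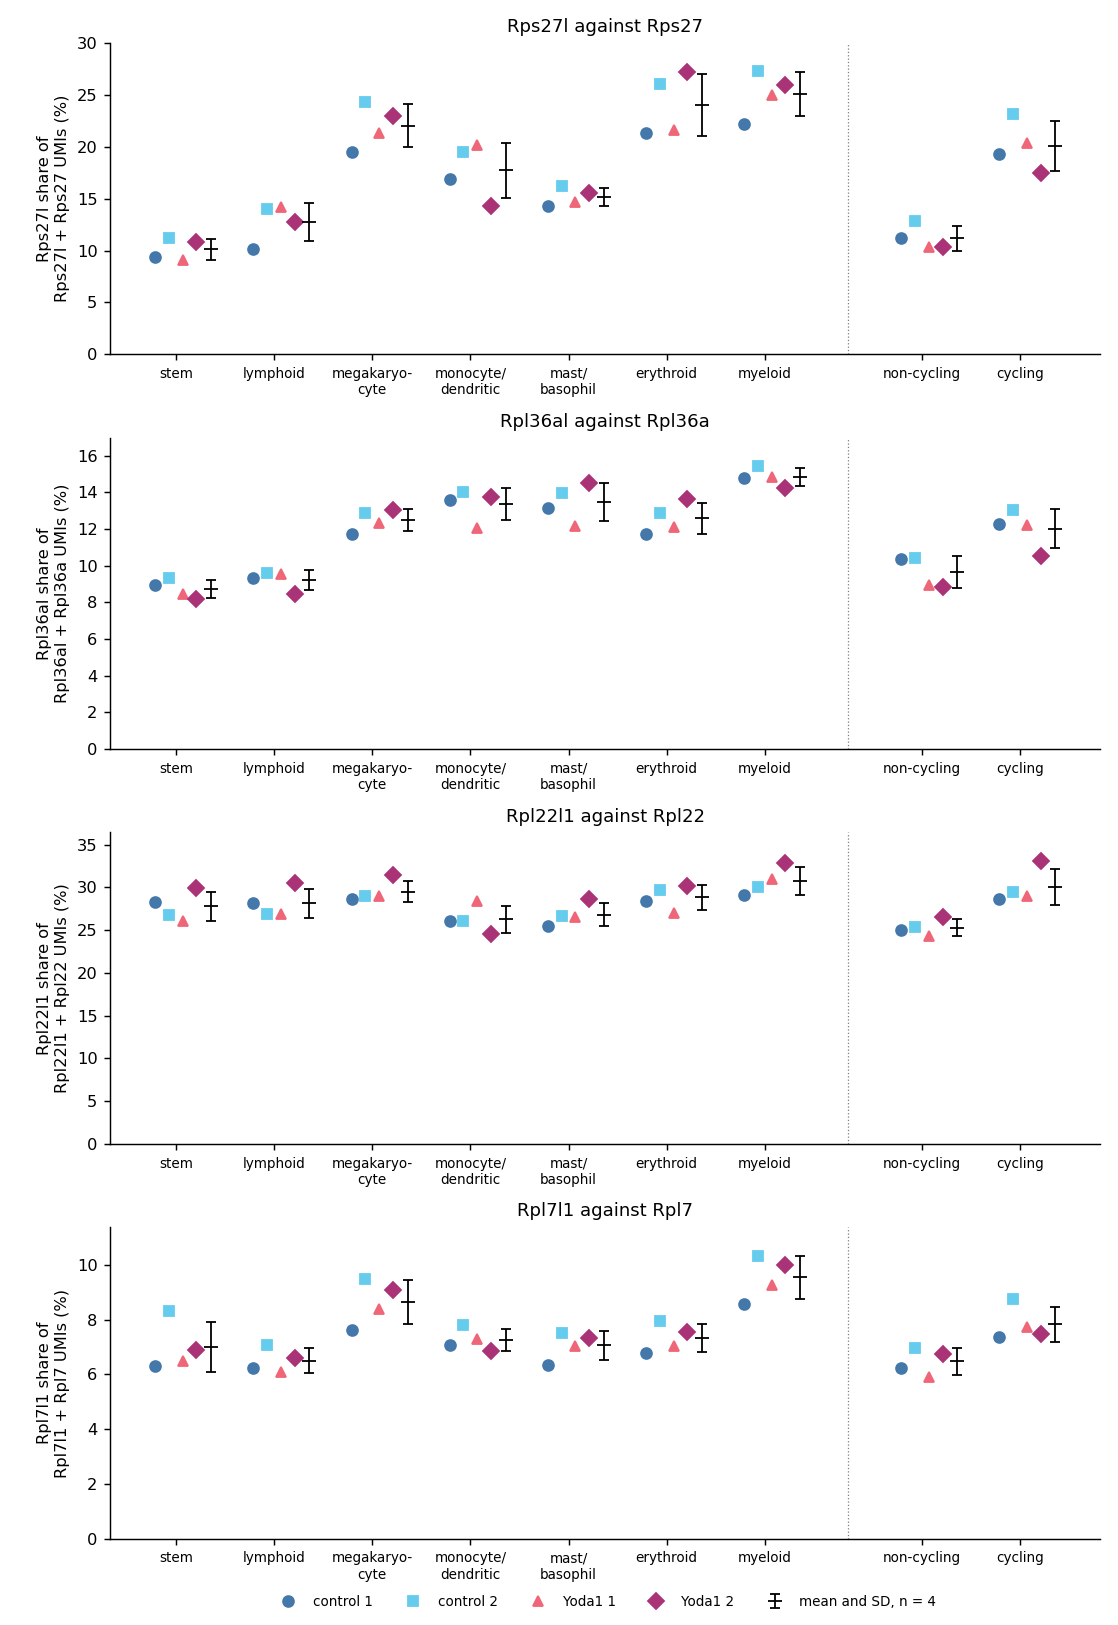
Share (%) of the copy in the summed UMIs of its pair, for Rps27l, Rpl36al, Rpl22l1 and Rpl7l1 from top to bottom, in 7 gates and by cycling state; points are libraries, black bars the mean and SD over 4 libraries, and each axis starts at 0. Rps27l stands at 9.12% to 11.2% in the stem gate and at 22.2% to 27.3% in the myeloid gate, while Rpl22l1 stands higher in cycling than in non-cycling cells in every library.

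The Rps27l share also moved with cycling. It was 11.2%, 12.8%, 10.3% and 10.3% in non-cycling and 19.3%, 23.2%, 20.4% and 17.5% in cycling cells. With cycling cells alone in both gates, the difference from the stem gate was still 12.9 points in the myeloid, 12.8 in the erythroid and 10.5 in the megakaryocyte gate, higher in 4 of 4 libraries each. Among non-cycling cells the megakaryocyte difference was 5.22 and the mast cell difference 1.93.

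Rpl36al lies on chromosome 12 and its partner Rpl36a, a protein of the tRNA exit site, on the X chromosome. Rpl36al overlaps the annotated gene Gm49383 on the same strand, and the part of reads shared with that gene was not tested. The Rpl36al share of the pair was 8.93%, 9.32%, 8.47% and 8.17% in the stem gate and 14.8%, 15.5%, 14.9% and 14.3% in the myeloid gate, a difference of 6.12 points, with no overlap. The mast cell gate came next (13.2%, 14.0%, 12.2% and 14.5%), then the monocyte (13.6%, 14.0%, 12.1% and 13.8%), erythroid (11.7%, 12.9%, 12.1% and 13.6%) and megakaryocyte gates (11.7%, 12.9%, 12.3% and 13.1%), 4 gates whose values overlapped each other. The lymphoid gate was at 9.31%, 9.59%, 9.57% and 8.45%. This share moved with cycling as well, from 10.4%, 10.4%, 8.92% and 8.87% in non-cycling to 12.3%, 13.0%, 12.2% and 10.5% in cycling cells. Among non-cycling cells the megakaryocyte difference from the stem gate was 1.45 points, against 3.77 over all its cells, and among cycling cells the lymphoid difference was -0.0809, against 0.508. The mast cell gate held 3913 CPM of myeloid markers in its median cell, whose part in its Rps27l and Rpl36al values was not tested. The partner did not pass the test here, whereas Rps27 had fallen: the log2 change of Rpl36a on the members' scale was 0.02 ± 0.04 in the myeloid gate (adjusted p = 0.677), against 0.89 ± 0.06 for Rpl36al (adjusted p = 4.64e-14).

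Rpl22l1, whose partner Rpl22 is known to repress it and is needed for early T cell development, differed between cycling states. Its share of the pair was 24.97%, 25.4%, 24.3% and 26.6% in non-cycling and 28.6%, 29.5%, 29.0% and 33.1% in cycling cells. Within the stem gate it was 25.1%, 25.7%, 22.9% and 27.4% against 32.3%, 28.5%, 31.0% and 34.1%, and higher in cycling cells in 4 of 4 libraries in the lymphoid gate as well. Against the stem gate, cycling cells of the myeloid gate differed by -0.78 points and those of the erythroid gate by -2.36. Rpl7l1, known for a part in ribosome assembly, was at 6.30%, 8.33%, 6.48% and 6.89% of its pair in the stem gate and 8.57%, 10.3%, 9.26% and 10.0% in the myeloid gate. The pseudogene Rps4l, which overlaps Tmtc1 on the opposite strand, was at under 1.14% of its pair with Rps4x in the gates tested. It had a log2 change of share of -0.92 ± 0.16 in the erythroid gate (adjusted p = 6.41e-06) and 0.58 ± 0.15 in the megakaryocyte gate (adjusted p = 0.00108), where it turned to -0.18 relative to the median member among non-cycling cells. Rpl32l fell by 1.83 on the log2 scale in the myeloid gate (adjusted p = 1.92e-05), but it holds 2.74 CPM and lies inside Map7 on the same strand, so its reads cannot be told from those of that gene.

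Other genes of ribosome production were taken from lists of pathway genes and read with TMM, against the shares of all genes given above for each contrast. Of 30 ribosome biogenesis genes, whose products make and process ribosomal RNA, 30 were higher in the erythroid gate (median log2 fold change 1.32, against 0.49 for the members and -0.06 for all genes), 28 in the myeloid (0.84), 26 in the megakaryocyte (0.62), 21 in the monocyte and dendritic cell, 14 in the mast cell and 6 in the lymphoid gate, where 2 were lower. With plain CPM the list's median stayed above 0 in each of these gates (0.94 in the erythroid, 0.05 in the mast cell gate) but the lymphoid, where it went from 0.05 to -0.07. In the erythroid gate the clearest were Nolc1 (2.07 ± 0.09), a nucleolar scaffold, Ncl (1.60 ± 0.08), nucleolin, Fbl (1.40 ± 0.07), the rRNA methylase fibrillarin, and Gnl3 (1.27 ± 0.06), nucleostemin. Over all cells, cycling against non-cycling cells gave 28 higher and 0 lower (median 0.69, and 0.46 with plain CPM). In the megakaryocyte gate, then, 26 of these 30 were higher (24 with plain CPM) while the members' median was 0.04 (-0.10). Of 24 elongation, initiation and host genes whose mRNAs carry the pyrimidine tract, 15 were higher and 3 lower in cycling cells (median 0.19), but 6 and 10 with plain CPM (median -0.04); Eif3l, a subunit of initiation factor 3, rose by 0.76 and the snoRNA host genes Zfas1 and Gas5 fell by 0.93 and 0.57. Of 20 mTOR and Myc pathway genes 9 were higher and 5 lower (5 and 7 with plain CPM), and of 12 genes of the p53 response 3 and 5 (2 and 6), where 29.9% of all genes were higher and 29.6% lower with TMM; the p53 counts are near those shares. Of 78 mitochondrial ribosomal protein genes, a list chosen after values were seen, 72 were higher and 0 lower (median 0.63), and 65 and 3 with plain CPM. Over all cells these contrasts also follow the mix of lineages. Within the stem gate 12 biogenesis genes were higher and 0 lower (median 0.24), against 15.8% and 14.6% of all genes. The pyrimidine tract list gave 3 and 8 (-0.04), and 77 mitochondrial genes 17 and 2 (0.15). Within the lymphoid gate these were 19 and 1 (0.49), 6 and 8 (0.05) and 40 and 1 (0.29). Medians were 0.16, -0.19 and 0.25 in the megakaryocyte and 0.54, 0.01 and 0.35 in the mast cell gate.

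Yoda1 against control was the study's own comparison. None of the 83 members passed the test over all LSK cells, where edgeR called 0 of 18182 genes (0%; 309 at an unadjusted p under 0.05, of which 0 were members), and DESeq2 called 5 genes and 0 members. The member share of UMIs was 28.0% and 27.1% in control and 28.2% and 27.4% in Yoda1, overlapping, with a difference of 0.264 points (exact permutation p = 0.667 with n = 2 against 2, where 0.333 is the smallest possible). The members' log2 fold changes ran from -0.26 to 0.14 with a median of -0.03 with TMM, and 0.02 with plain CPM, so the family had no direction that held under both scalings. In such sums over all cells, fewer cells of a type and less RNA per cell cannot be told apart. The median was -0.18 without Yoda1 1 and 0.09 without Yoda1 2.

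Single members differed little between treatments beside the edgeR SE, which draws on the spread of all genes, not of that member alone. Rpl29, a large subunit protein, had the smallest p among those lower in Yoda1, at 1857 and 1998 CPM in control and 1598 and 1733 in Yoda1 (log2 fold change -0.26 ± 0.22, unadjusted p = 0.294, edgeR adjusted p = 1). Its groups did not overlap. Rps2 (-0.21 ± 0.25) stood at 3951 and 4817 CPM in control and 3827 and 3976 in Yoda1, and Rps19 (-0.17 ± 0.24) at 3045 and 3543 against 2719 and 3324; both overlapped. Of those higher in Yoda1, Rps27 was at 2900 and 2351 CPM against 2992 and 2926 (0.13 ± 0.27) and Rpl15 at 1026 and 890 against 1057 and 1068 (0.10 ± 0.23), without overlap. In CPM both Yoda1 libraries lay above both controls for 6 members (Rpl22l1, Rps27, Rpl13, Rpl15, Rpl26 and Rps14), against 9.40% of all genes, and below them for 8 (among them Rpl7a, Rpl10, Rps16, Rpl29, Rpl4, Rpsa and Rps27a), against 9.95%, which are shares near those of all genes. The widest spread between libraries lay elsewhere: Rpl24 was at 315, 548, 318 and 457 CPM, Rps10 at 476, 785, 526 and 675 and Rps28 at 4194, 2925, 4437 and 3452, so that control 1 was closer to Yoda1 1 than to control 2. Rpl24 and Rps10 overlap the annotated genes Gm28037 and RPS10-NUDT3 on the same strand. The part of reads shared with those genes in these values was not tested.

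**Figure D4:**
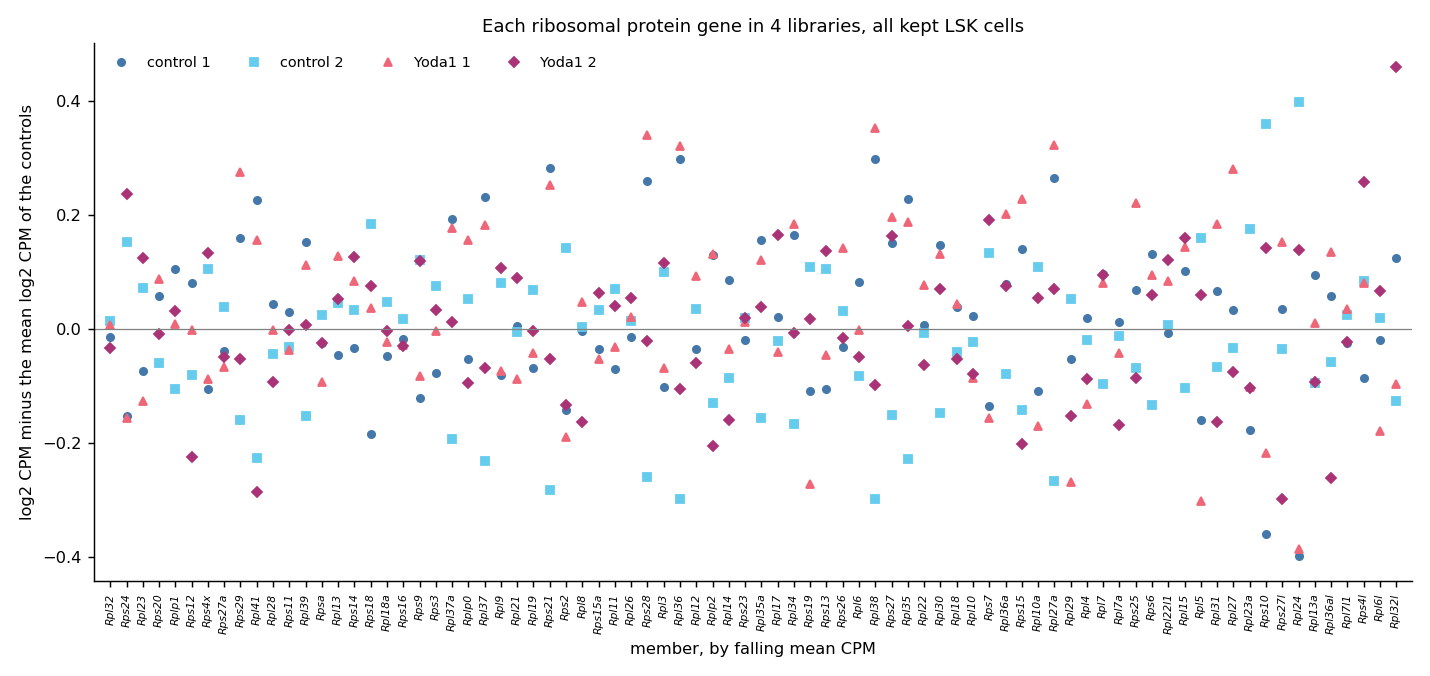
Log2 CPM of 80 members (horizontal axis, by falling mean level) minus its mean over the 2 controls (vertical axis), with 1 point per library. Most members lie within 0.2 of the control mean, and for Rpl24, Rps10 and Rps28 the controls stand farther apart from each other than the treatments do.

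Within cell groups no member passed the test either. edgeR called 0% of genes and 0 members between Yoda1 and control in each of the 7 gates, in cycling and in non-cycling cells, with 114 to 755 genes at an unadjusted p under 0.05, and 0% in the test of whether the treatment difference itself differed between the stem gate and each of the 6 others. One member had an unadjusted p under 0.05: Rps4l in the megakaryocyte gate (edgeR unadjusted p = 0.00747, adjusted p = 0.999998). The Rps27l share of its pair over all cells was 18.1% and 20.6% in control and 18.9% and 14.8% in Yoda1, a difference of -2.53 points that was -0.50 without Yoda1 2. The Rpl36al share was 12.1% and 12.4% against 11.8% and 9.98%, lower in both Yoda1 libraries by -1.40, and by -0.49 without Yoda1 2 (exact permutation p = 0.333, the smallest possible). Yoda1 2, the lower of each pair, was the library with the most stem gate cells and the fewest myeloid markers; within the stem gate the Rps27l share was 9.40% and 11.2% against 9.12% and 10.8%, overlapping.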

How the data were processed

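The data were single-cell RNA-seq of LSK cells from 2 control and 2 Yoda1 libraries, grouped by their labels. The authors deposited a matrix of UMI counts per gene and cell barcode for each library, made with Cell Ranger 7.1.0 per the file headers. Per the submitters' processing notes, Seurat 4.3.0 was used and the builds were GRCm38 and mm10; the annotation release, the handling of intronic reads and a removal of doublets are not given in the sources used here. The labels name 2 capture systems, so the platform is uncertain. The counts were used as deposited. Cells with at least 500 genes, 1000 UMIs and at most 10% mitochondrially encoded UMIs were kept, with 89058521 to 110493533 UMIs per library. All 83 members and 52081 of the 55357 gene identifiers were found in GENCODE M21.

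Members and lists were chosen with earlier results of these data known. Each cell's UMIs of genes other than members were thinned to 2000 for gating and cycling calls, leaving out 825 shallower cells. A gate needed a mean standardized marker score of at least 1.0 and a lead of 0.5 over the next list, cuts set after seeing the marker genes; no doublet caller was run. The counts were summed per library and gate or state (at least 50 cells in every library, or 25 for cycling states within a gate) and compared in edgeR 4.0.16 (quasi-likelihood fit, TMM, filterByExpr, Benjamini-Hochberg adjustment over all genes tested, threshold 0.05), with library as a block for gates and cycling. Shares were compared by exact permutation, two-sided, and their intervals are exact Clopper-Pearson intervals at 95%. The test was checked on simulated data.

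The named members were the paralogues, the 5 of highest and of lowest mean CPM, up to 4 in each direction per gate and for cycling with the largest change relative to the median member among those with an adjusted p under 0.05 on the same side in all 4 libraries, the 5 of smallest p in each direction for treatment, and Rps19, Rpl5, Rpl11 and Rps14. For gates and cycling that adjusted p was of the TMM change itself, not of the change relative to the median member. In the lymphoid gate Rplp2 was so named as relatively lower, though on the members' scale it passed as lower in no gate. Rpl17, with a mean log2 change of share of -0.19 there, was not named for that gate. Of the pathway lists, up to 4 with the smallest p in the comparison told were named. Values of 3 members are not reported here, though they stay in all tests and counts. Members mentioned outside this rule were chosen after their values were seen. Alternatives were other size factors and scalings, DESeq2 1.42.0, no filter on low counts, other cell filters and gates, 1 cycling state alone and each library left out. R 4.3.3, Python 3.11.15, numpy 2.4.6, pandas 2.3.3, scipy 1.17.1 and matplotlib 3.10.9 were used.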

Additional observations from a re-analysis of the deposited data

Results flagged for a closer look

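The Rps4l share of the Rps4l and Rps4x UMIs differed in opposite directions between treatments in a pair of gates, picked out because they differed in this way. In the megakaryocyte gate it was 0.795% and 0.806% in control and 1.13% and 1.09% in Yoda1, a difference of 0.312 points. In the stem gate it was 0.812% and 0.650% in control and 0.630% and 0.594% in Yoda1, a difference of -0.119 points. Every Yoda1 library lay above every control in the former and below it in the latter, and the difference between the gates was not tested on this share. The stem gate order rests on 0.650% in control 2 against 0.630% in Yoda1 1. Rps4l took only 0.0117% to 0.0146% of the members' UMIs there, and counting error was not set against that gap. With 2 libraries against 2, an exact permutation test cannot go below p = 0.333. Rps4l is a pseudogene that overlaps Tmtc1 on the opposite strand.

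The Rpl22l1 share of its pair in the megakaryocyte gate was 31.4% in Yoda1 2, apart from 28.7%, 29.0% and 29.0% in the 3 other libraries. It was the only value that stood apart in this way among 45 groups of 4 libraries. Chance gives such a value in about 1 of 20 groups, so 1 among 45 is no more than chance would give.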

How the results depend on the processing

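Gates rest on cuts of a marker score, doublets were not called, and with 4 libraries an exact test of a share cannot pass the threshold. Depth limits Rpl32l and Rps4l. Some gates held few cells of 1 cycling state, and where one library was left out of a group of 2, the lone library was assumed to vary like the others. The causes of the shifts below were not tested.

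Of the settings tried, 254 of 269 left the count of called members within 1.5 times. In the lymphoid gate 50 members were called, but 32 relative to the members' UMIs, 25 with plain CPM, 27 among non-cycling cells and 32 to 54 when single libraries were dropped. In the mast cell gate (49) it was 20 and in the megakaryocyte gate (53) 32 among non-cycling cells. With a library left out the cycling contrast (48) gave 31 to 56 and that within the lymphoid gate (46) 29 to 46. Plain CPM turned the median member to -0.044 in the mast cell, -0.10 in the megakaryocyte, -0.072 in the monocyte and -0.0090 in the myeloid gate and to -0.10 in cycling cells.

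The member share difference in points was 2.80 (erythroid), -0.161 (mast cell), -1.38 (megakaryocyte) and 0.814 (myeloid) with cycling cells only. In the megakaryocyte gate it was 1.24 among non-cycling cells, -1.51 without the top 5% of cells by UMIs and -1.51 as a median per cell.

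The Rps27l share difference was 10.96 in the erythroid and 10.2 in the megakaryocyte gate without the top 5%. With the stricter gate it was 5.76 in the mast cell, 14.2 in the megakaryocyte and 16.6 in the myeloid gate. Among non-cycling cells it was 1.93 in the mast cell and 5.22 in the megakaryocyte gate, and among cycling cells 3.89, 10.5 and, in the myeloid gate, 12.9. The Rpl36al difference was 0.996 (lymphoid), 7.04 (mast cell) and 1.45 (megakaryocyte) among non-cycling cells, -0.0809 (lymphoid) and 5.66 (myeloid) among cycling cells, and 5.72 (monocyte) and 6.56 (myeloid) with the stricter gate. Rpl22l1 turned to -2.36 (erythroid), -1.34 (megakaryocyte) and -0.782 (myeloid) among cycling cells. Rpl7l1 turned to 0.102 among cycling cells of the lymphoid gate and to -0.610 among non-cycling cells of the megakaryocyte gate.

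Relative to the median member, Rpl37 in the lymphoid gate turned to 0.030 among cycling cells. Among non-cycling cells Rpl19 turned to 0.0077 in the lymphoid, Rpl37a to 0.074 in the mast cell and Rps4l to -0.18 in the megakaryocyte gate. Of the other such values 93 no longer passed the test and 679 did. That test was of each member's own change between cells, not of its change relative to the median member.

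For treatment, members called stayed 0 under every setting run. With single libraries left out the log2 fold change ran from -0.072 to 0.34 for Rps27, -0.053 to 0.27 for Rpl15, -0.16 to 0.49 for Rpl27a, -0.043 to 0.32 for Rpl32l and -0.51 to 0.17 for Rpl24, each time turning without control 2 and having its other end without control 1. The first 3 also turned without Yoda1 1 (-0.016, -0.014 and -0.13), and Rpl32l without Yoda1 2 (-0.038). Of the same-numbered libraries, the deviations from group means correlated by 0.706 over the members and 0.487 over all genes tested. With only 2 pairs, and labels that do not say that a number marks a batch, the numbers were not taken as a pairing. Blocking on the replicate number, edgeR called 0 members and 0 of 18182 genes (1367 at an unadjusted p under 0.05); within cell groups it called 0 members and 0 to 45 genes.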
